A study of Mus musculus with 18 samples.

Results

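Expression in the oviduct was compared with that in the vagina of newborn female ICR mice whose mothers were given the synthetic estrogen diethylstilbestrol (DES). The comparison holds 5 of the 18 arrays of the study. They are the 3 DES oviduct arrays and the 2 DES vagina arrays, numbered 2 and 3, that share the MOE430A chip. DES vagina array 1 was hybridised to the older MG_U74Av2 chip, whose probe sets differ, and was left out of the fit. All 22626 probe sets but the controls were taken, and 16702 of them, those with a Present call on 2 arrays or more, were tested. They represent 9637 genes.

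The oviduct, the uterus and the upper vagina form from one tube, the Müllerian duct, while the lower vagina forms from the urogenital sinus. Along this tube the Hox genes are expressed in nested domains, with the most posterior members in the vagina. The oviduct matures to a simple epithelium of secretory cells and of cells with motile cilia, whereas the vagina forms a stratified squamous epithelium that rests on basal cells expressing the transcription factor p63. DES before or around birth disturbs this pattern, and in mice and in women it is known for later adenosis of the vagina, malformed oviducts and cancer of the reproductive tract.

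Per the labels, the dams were injected each day from fetal day 10 to 18 with 67 µg of DES per kg of body weight, or with oil alone, and RNA was taken at birth from 3 litters. Whether a litter makes an array, and whether animals were pooled, is not stated, so the spread between arrays may be partly technical. Besides the DES oviduct (3 arrays) and the DES vagina (2 arrays), the oil oviduct and the oil vagina (3 arrays each) are used here. The 6 uterus arrays enter the shared estimate of the spread and the count of Present calls that a tested probe set needs. No group was untreated, and the oil groups carry the injections that the DES groups carry. In a whole organ, fewer cells of a type cannot be told apart from less RNA per cell.

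Signals were scaled to a trimmed mean of 500 per array, so a value below is a scaled intensity of a probe set. A difference is oviduct minus vagina on the scale of log2(signal + 32), given with its standard error, and the threshold is an adjusted p of 0.05. Where every array of one group called the probe set Absent, the fold is a lower bound and is written as "at least". Before scaling, the trimmed mean was 73.3, 79.3 and 108 on the DES oviduct arrays and 30.0 and 115 on the DES vagina arrays, and the share of probe sets with a Present call was 55.8 to 66.4%. The arrays numbered 3 were scanned on a second day, and their analysis names give 19 days post coitum where the others give day 0. The experiment record of DES oviduct array 3 names the vagina, against its title and its analysis name. Its signals were those of an oviduct: Ovgp1, an oviduct glycoprotein, was at 4219 there and at 142 and 129 on the DES vagina arrays, and Hoxd13, a gene of the posterior duct, was at 4.15 against 275 and 479. For oil oviduct array 1 the deposited per-array record is the same as that of DES oviduct array 1, so its signals came from the value table and it has no calls. Over the probe sets tested, log2 signals of the DES oviduct arrays correlated with each other at 0.946 to 0.973 and those of the DES vagina arrays at 0.954. DES oviduct arrays correlated with DES vagina arrays at 0.900 to 0.935. DES uterus array 3, of the second scan day, correlated at 0.951 with DES oviduct array 3 and at 0.956 with DES vagina array 3. Array 3 of either organ thus correlated with it more closely than with another array of its own organ.

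Between DES oviduct and DES vagina, 855 probe sets (5.12%) passed the threshold, 455 higher in the oviduct (2.72%) and 400 higher in the vagina (2.39%). By gene these were 640 of 9637 (6.64%), 334 higher in the oviduct (3.47%) and 306 higher in the vagina (3.18%). The median difference over all genes was close to 0, at -0.00106. The arrays of the organs did not overlap for any of the 640 genes, nor for 31.6% of all genes tested. All 640 had the same sign on the first scan day (2 oviduct arrays against 1 vagina array) and on the second (1 against 1). Groups that do not overlap fix this sign in advance, so it is no separate check. For 166 of the 640 genes the difference was larger than 2 in size. With the scan day as a block, 1484 probe sets passed, 789 higher and 695 lower, and the 855 were all among them. The count fell to 429 without DES vagina array 3, to 505 without DES vagina array 2 and to 769 without DES oviduct array 3, whose record names the vagina. Of the 640 genes, 249 passed whichever of the 5 arrays was left out, and so did 77 of the 129 called genes that are named by rule. The call was lost in 3 or more of these 5 fits for 26 of the 129, among them Tnnc2, Mylpf, Tnni2, Hoxa3, Hoxb6, Hoxa9, Spint1, Clca1, Muc5b, Fzd1, Bmp6, Nbl1, Eya1, Rarres2, Dhrs3, Akr1c14, Actg2, Tagln, Wt1, Gata2, Sox17, Cd34 and Sptssb. Of the 20 named genes that passed only with the scan day as a block, Dnah5, Kif9, Cd24a, Klf5, Klf4, Lcn2, Hoxa10, Runx1, Myl9, Col1a2, Mki67 and Cma1 are described below.

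**Figure D1:**
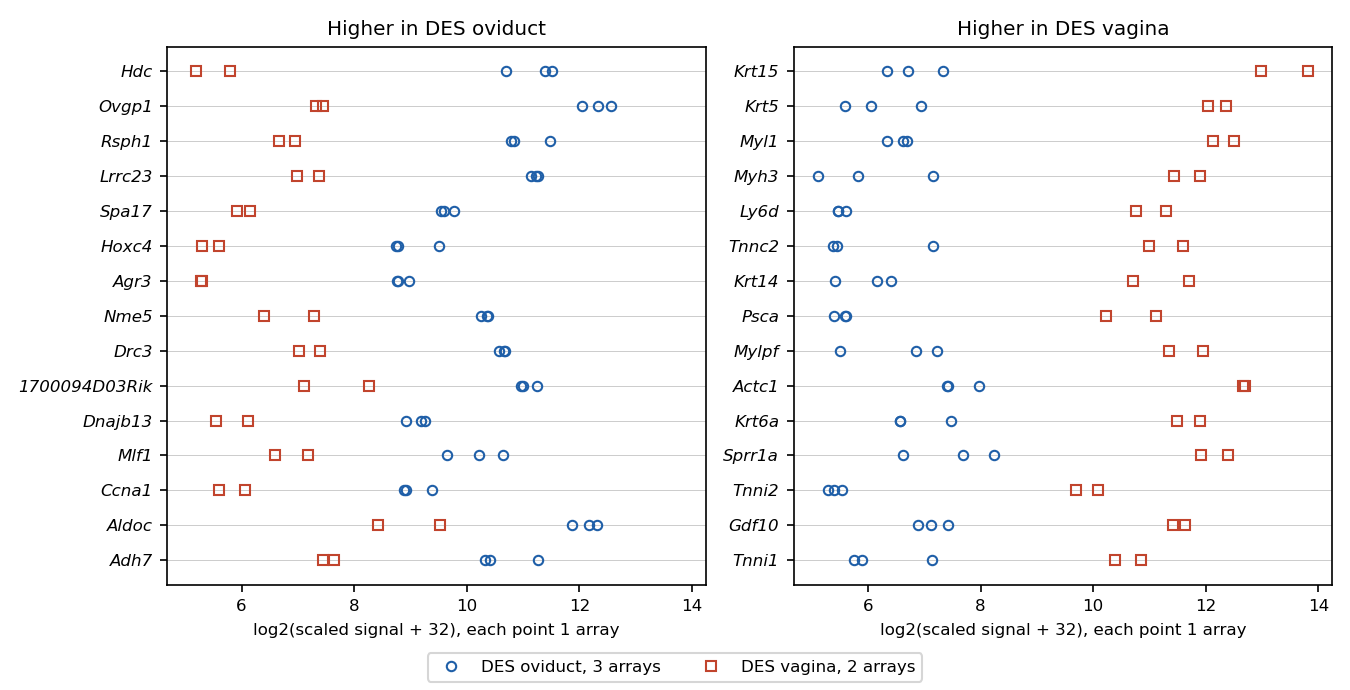
Signals of the 15 genes with the largest differences in each direction, on the horizontal axis as log2(scaled signal + 32), with 1 point per array. Circles are the 3 DES oviduct arrays and squares the 2 DES vagina arrays. Genes with overlapping groups were not eligible. The difference is largest for Hdc on the left and Krt15 on the right.

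Genes of motile cilia lay on the oviduct side. Of 21 tested, 18 were higher in DES oviduct (85.7%, against 3.47% of all genes), none was higher in DES vagina, and the median difference was 2.40. None of the 21 was Absent on all DES oviduct arrays. In contrast, 12 were Absent on both DES vagina arrays, 13 on the oil oviduct arrays with calls and 13 on the oil vagina arrays. The filter on Present calls could thus be met through DES oviduct alone, so it may have raised this share. Rsph1, a radial spoke component of the ciliary axoneme, read 1789.9, 1727 and 2824 in DES oviduct and 70.05 and 91.6 in DES vagina. All 3 oviduct arrays lay far above both vagina arrays, on which the probe set was called Absent, and the fold was at least 18.6-fold (adjusted p = 1.27e-06). Lrrc23, another protein of the radial spoke, read 2241, 2428 and 2382 against 135 and 94.2. The oviduct arrays lay within a narrow band and the fold was at least 16.4-fold (adjusted p = 3.46e-05). Spa17, first known as a sperm protein and present along ciliary axonemes, read 842, 711 and 746 against 28.4 and 39.1, at least 11.01-fold higher (adjusted p = 1.3e-05).

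Foxj1, the transcription factor that switches on the program of motile cilia, read 411, 562 and 681 in DES oviduct and 102 and 56.4 in DES vagina. The groups did not overlap, and the difference was 2.40 ± 0.54 (adjusted p = 0.0115). Among the fits that left out 1 array, the call was lost only without DES vagina array 3. Tekt1, a filament protein of ciliary microtubules, read 475, 539.5 and 631 against 36.7 and 58.6, with no overlap and a difference of 2.87 ± 0.44 (adjusted p = 0.00046). Mlf1 and Meig1, both expressed in ciliated cells and the latter needed for sperm formation, were at least 9.72-fold and at least 6.31-fold higher. Nme5, a nucleoside diphosphate kinase relative of the radial spoke, was at least 11.2-fold higher, and Drc1, of the nexin-dynein regulatory complex that links outer microtubule doublets, was at least 7.46-fold higher. The smallest called differences were those of Ift57, a subunit of intraflagellar transport, at 1.25, and Tekt2 at 1.15.

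3 members did not pass. Dnah5, an outer dynein arm heavy chain, read 477, 304 and 243 against 90.1 and 33.00 (adjusted p = 0.0577), and Kif9, a ciliary kinesin, read 341, 455 and 351 against 125 and 67.7 (adjusted p = 0.0585). Neither overlapped between the groups. Rfx3, a transcription factor of ciliated cells, read 119, 119 and 60.9 against 83.4 and 59.05, and its groups overlapped (adjusted p = 0.842). Drc3 and Dnajb13, ciliary genes outside the list, were also among the 15 largest rises: Drc3 read 1611, 1591 and 1490.4 against 137 and 97.7, and Dnajb13 read 454, 553 and 578 against 15.01 and 37.3. With the scan day as a block 20 of the 21 passed, and with 1 array left out 14 to 18 did. The scaled signals of the 21 genes summed to 16300 to 17901 on the DES oviduct arrays and to 2259 to 2417 on the DES vagina arrays, where 12 of the 21 were called Absent on both.

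Promoter windows of the cilia genes were searched because the group moved together and because RFX proteins, which act in ciliated cells, bind a paired motif, the X-box. Sequences are shown for 3 of the called genes. These windows all hold a match and do not stand for the whole group. RefSeq (GRCm38.p6) windows, from 250 bases before to 50 after the transcription start, were searched for 16 of the 21 genes. The X-box was searched on both strands as GTTNCC, then 1 or 2 bases, then GGNAAC. A single core was searched as GTTGCC or its reverse complement GGCAAC, which can lie within an X-box. The windows below run 5′ to 3′ on the strand of the gene. Capitals mark the X-box in Ift57 (chr16:49699044-49699343, plus strand) and the single cores in Lrrc23 (chr6:124779678-124779977, minus strand) and Tekt1 (chr11:72361833-72362132, minus strand).
Ift57: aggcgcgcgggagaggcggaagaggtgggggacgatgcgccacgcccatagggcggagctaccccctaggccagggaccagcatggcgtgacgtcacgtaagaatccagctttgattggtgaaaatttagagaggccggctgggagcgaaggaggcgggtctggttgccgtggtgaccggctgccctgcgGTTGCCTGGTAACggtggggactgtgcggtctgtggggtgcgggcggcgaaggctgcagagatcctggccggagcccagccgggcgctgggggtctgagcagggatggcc
Lrrc23: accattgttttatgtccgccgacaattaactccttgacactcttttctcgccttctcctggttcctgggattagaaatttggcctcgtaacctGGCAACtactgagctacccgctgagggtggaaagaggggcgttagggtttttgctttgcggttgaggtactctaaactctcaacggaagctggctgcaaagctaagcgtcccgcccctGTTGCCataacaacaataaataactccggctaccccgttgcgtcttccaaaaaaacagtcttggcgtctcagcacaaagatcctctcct
Tekt1: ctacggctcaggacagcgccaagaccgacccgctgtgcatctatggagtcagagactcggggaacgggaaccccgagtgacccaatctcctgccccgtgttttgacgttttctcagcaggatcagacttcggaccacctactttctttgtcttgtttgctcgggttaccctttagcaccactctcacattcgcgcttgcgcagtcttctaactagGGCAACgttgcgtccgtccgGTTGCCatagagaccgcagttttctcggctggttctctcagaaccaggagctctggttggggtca

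The X-box of Ift57 began at base -60 from the start, the single cores of Lrrc23 at -157 and -39, and those of Tekt1 at -35 and -15. Another window of Tekt1 (chr11:72361247-72361546) held no match. Neither did any window of the called genes Ccdc65, Meig1, Rsph9 and Spa17. A single core was in a window of 11 of the 16 genes (68.8%) and in 9 of the 13 that were higher in DES oviduct (69.2%). Of all genes tested that had a searched window, 1140 of 7770 held it (14.7%), and of all windows searched 12.5%. Windows on 1 chromosome were left out before the search. The full X-box was in 1 of the 16 genes, against 0.759% of all genes tested with a searched window and 0.718% of all windows searched. These matches describe letters in the windows and not bound sites, and the search followed the list's result.

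Genes of the oviduct's secretory epithelium were also higher in DES oviduct. Of 9 tested, 7 were higher (77.8%, against 3.47% of all genes), none was lower, and the median was 1.36. Ovgp1, the oviduct-specific glycoprotein secreted around the egg, read 5139, 6049 and 4219 in DES oviduct. It read 142 and 129 in DES vagina, a difference of 4.93 ± 0.29 (adjusted p = 3.86e-08) that was 5.01 on the first scan day and 4.72 on the second. Aldh1a1, which makes retinoic acid from retinal, read 1182, 1084 and 1149 against 150.1 and 74.2 (3.07, adjusted p = 0.00128). Plet1, a surface protein of epithelial progenitor cells, was bright in both organs, at 10131, 9205 and 10681 against 1903 and 1145, and was 6.64-fold higher in the oviduct (adjusted p = 1.47e-06). Pax8, a transcription factor of the Müllerian epithelium, read 922, 957 and 681 against 320.2 and 299 (1.36, adjusted p = 0.00396). It was called Present on all 5 arrays and the groups did not overlap. Ecrg4, Prom1 and Sox17 differed by 1.44, 1.16 and 1.14. The other two tested, Cd24a at 11702, 11088 and 9051 against 7611 and 7335 and Gpx3 at 789, 845 and 714 against 904 and 1111, did not pass.

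Hdc, the enzyme that makes histamine from histidine, had the largest rise of all genes tested. It read 2888, 2653 and 1632 in DES oviduct and 23.4 and 4.34 in DES vagina, at least 43.2-fold higher (adjusted p = 2.86e-07). Every oviduct array lay far above the vagina arrays, both of which were called Absent. Histamine is stored in mast cells. Of the other mast cell genes tested, the proteases Cpa3 at 256, 207 and 171 against 218 and 96.4, Cma1 at 157, 195 and 185 against 115 and 69.9 and Tpsb2 at 115, 95.2 and 108 against 182 and 146 had no Present call on these 5 arrays, though Cma1 was Present on the older-chip DES vagina array. The protease Tpsab1, at 132, 101 and 82.1 against 148 and 97.7, was Present on 1 array of each organ. Kit, the stem cell factor receptor, was Present on all 5, at 628, 607 and 281 against 597 and 261, and none of these 5 genes passed. Of the 7 mast cell genes tested, 1 (Hdc) was higher (14.3%, against 3.47% of all genes). Gata2, also expressed in stroma, was the 1 lower gene, at -0.64 (14.3%, against 3.18%). Among the fits that left out 1 array, only that without DES oviduct array 2 kept the Gata2 call.

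Several enzymes stood beside Hdc among the 15 largest rises. Aldoc, an aldolase of glycolysis, read 4606, 5067 and 3705 against 707 and 311 (3.15 ± 0.28, adjusted p = 2.01e-06). Adh7, an alcohol dehydrogenase that also oxidises retinol, read 1334, 1248 and 2445 against 168 and 142, at least 8.74-fold higher. Array 3 was the highest of the oviduct arrays for it, and both vagina arrays were Absent. Agr3, a disulfide isomerase relative found in ciliated airway cells, read 409, 403 and 473 against 6.67 and 7.38, at least 8.43-fold higher (adjusted p = 1.75e-06). Ccna1, a cyclin best known from meiosis in the male germ line, read 632, 453 and 440.1 against 16.7 and 34.7, at least 7.61-fold higher. The transcript 1700094D03Rik, whose role is not given in the sources used here, read 2400.4, 1956 and 2022 against 277 and 107. Cidea, a protein of lipid droplets named on the fat list, read 620.1, 602 and 531 against 73.4 and 57.3 and was at least 6.34-fold higher, while the fat genes Fabp4 at 1083, 1038 and 724 against 654 and 652 and Lpl at 2784, 2807 and 2604 against 3222 and 3067 did not pass.

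Of the genes that code for enzymes and receptors of steroids and prostaglandins, 6 of 16 tested (37.5%, against 3.47% of all genes) were higher in DES oviduct and none was lower. Ptgds, a prostaglandin D synthase, read 701, 797 and 718 against 264 and 91.2 (2.01, adjusted p = 0.000335). Hpgd, which degrades prostaglandins, read 991, 1055 and 567 against 305 and 206 (1.62, adjusted p = 0.00148). Cyp7b1, a steroid hydroxylase, differed by 1.41, Hsd11b1, which regenerates active glucocorticoid, by 1.64, and Akr1c14, a hydroxysteroid dehydrogenase, by 1.60. The prostaglandin receptor Ptger4 differed by 0.89. The count was 2 without DES vagina array 3 and 4 without DES oviduct array 2. The estrogen receptor gene Esr1 at 133, 194 and 256 against 103 and 251 and the progesterone receptor gene Pgr at 275, 206 and 151 against 122 and 133 did not pass (adjusted p = 0.961 and 0.48), and the arrays overlapped for Esr1.

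Genes of stratified squamous epithelium lay on the vagina side. Of 32 genes tested, 21 were higher in DES vagina (65.6%, against 3.18% of all genes), 1 was higher in DES oviduct (3.12%, against 3.47%), and the median was -2.10. Of the 32, 13 were Absent on all DES oviduct arrays and 13 on the oil oviduct arrays with calls. None was Absent on both DES vagina arrays, and 2 were on the oil vagina arrays. The filter on Present calls could thus be met through the vagina arrays, so it may have raised this share. Krt15, a basal cell keratin, had the largest difference of all genes tested. It read 72.3, 49.2 and 129 in DES oviduct and 8096 and 14311 in DES vagina, at least 97.3-fold higher in the vagina (adjusted p = 2.01e-06). Krt5 and Krt14 pair to form the filaments of basal cells. Krt5 read 34.1, 16.4 and 90.4 against 4176 and 5200.5 (-6.003 ± 0.48, adjusted p = 7.35e-07), and Krt14 read 39.6, 10.7 and 53.05 against 1649.6 and 3318, at least 35.1-fold higher in the vagina (adjusted p = 1.3e-05). For each of these keratins both vagina arrays lay far above all oviduct arrays, and array 3 was the highest of the oviduct arrays.

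Trp63, which encodes p63 and is needed for a stratified epithelium to form, read 49.1, 50.4 and 39.2 in DES oviduct and 697 and 682 in DES vagina. The 2 vagina arrays nearly coincided, and the difference was -3.21 ± 0.33 (adjusted p = 1.24e-05). Genes of the layers above the basal cells lay on the same side. Krt6a, a keratin of active suprabasal cells, read 63.4, 146 and 63.2 against 2845 and 3767 (-4.82), and Sprr1a, a cornified envelope protein, read 269, 174 and 66.9 against 3841 and 5360.3 (-4.64). Ly6d and Psca, surface proteins of stratified and sinus epithelium of which Psca is not on the list, were at least 43.8-fold and at least 34.3-fold higher in the vagina. Krt4 and Krt13, the keratin pair of internal squamous epithelia, differed by -4.22 and -3.77, the hemidesmosome collagen Col17a1 by -3.90, and the desmosome genes Pkp1, Dsc2 and Dsp by -3.26, -2.46 and -1.29. The member on the oviduct side was Bnc1, a zinc finger protein of basal cells that the mesothelium list also holds, at 351, 565 and 521 against 128 and 153 (1.54), a call lost without DES vagina array 2. Itga6, the integrin of basal epithelium, at 1994, 2526 and 2266 against 2315 and 1654, and Klf5 at 435, 694 and 752 against 949 and 1136 did not pass.

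Most genes of simple epithelium and its junctions did not pass. Of 28 tested, 1 was higher in DES oviduct (3.57%, against 3.47% of all genes), 3 were higher in DES vagina (10.7%, against 3.18%), and the median was -0.12. Krt8 read 5315, 5799 and 6550.5 against 6243 and 8459 and Krt18 4806, 4934 and 5166 against 4151 and 3962, neither past the threshold (adjusted p = 0.569 and 0.298). Krt7, a keratin of simple and transitional epithelium, read 1291, 1083 and 1706 against 3206 and 3841 (-1.37, adjusted p = 0.00213). Among the tight junction genes, Cldn4 was higher in the vagina (-1.18) and Cldn3 was higher in the oviduct (0.85), and Spint1, an inhibitor of epithelial proteases, differed by -0.75. Without DES vagina array 2 or 3, 1 gene was higher in DES vagina, and without array 3 Cldn3 did not pass.

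Genes known to respond to estrogen lay on the vagina side where they passed. Of 25 tested, 7 were higher in DES vagina (28.0%, against 3.18% of all genes), none was higher in DES oviduct, and the median was -0.56. Sprr2f, an estrogen-induced small proline-rich protein, read 1306, 448 and 310.4 in DES oviduct and 5969.5 and 7485 in DES vagina (-3.48 ± 0.45, adjusted p = 0.00011). The oviduct arrays were uneven for it, array 1 being the highest, and all lay below the vagina. Clca1, a regulator of chloride channels made by mucous cells, read 1774, 657 and 1896 against 10011 and 11592 (-3.01, adjusted p = 0.024). Padi4, which converts arginine residues to citrulline, read 8.19, 3.15 and 93.2 against 424 and 636 (-3.30), and Ltf, the secreted iron binder lactoferrin, read 482, 512 and 782 against 2103 and 2479.5 (-1.92, adjusted p = 0.000887). Gjb2, a gap junction protein, and Inhbb, an activin subunit, differed by -2.02 and -1.38. Fos, Klf4 and Igf1 did not pass, and Fos spanned 4091 and 1189.6 on the DES vagina arrays alone. Of 18 immediate early genes, Egr1 and Ier2 (11.1%, against 3.18% of all genes) were higher in DES vagina (-1.58 and -0.87) and Ier3 (5.56%, against 3.47%) in DES oviduct (1.39). The call of Ier3 was lost without DES vagina array 3, and 1 of the other two calls without that array or DES oviduct array 2.

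Mucous and defence genes were mixed, with 1 of 16 higher in DES oviduct (6.25%, against 3.47% of all genes) and 3 lower (18.8%, against 3.18%). Hp, the hemoglobin binder haptoglobin, read 4343, 3612 and 7016 against 836 and 581, higher in the oviduct (2.73, adjusted p = 0.00129). Muc5b, a gel-forming mucin, read 213, 166 and 373 against 972 and 984 (-1.90, adjusted p = 0.0124), and the other two lower genes were Clca1 and Ltf. The lower count was 1 without DES oviduct array 2, DES vagina array 2 or DES vagina array 3. Wfdc2, a secreted protease inhibitor, read 3692, 2920.1 and 3418 against 3589 and 3037, and its groups overlapped. Lcn2 at 1156, 1161 and 839 against 2487 and 1740.2 did not pass (adjusted p = 0.0836).

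Called Hox genes lay on the oviduct side in the lower paralog groups and, but for Hoxa9, on the vagina side in the higher ones. Of 14 tested genes of groups 1 to 8, 6 were higher in DES oviduct (42.9%, against 3.47% of all genes), none was lower, and the median was 1.45. None of the 14 was Absent on all DES oviduct arrays, and 6 were on both DES vagina arrays. The filter on Present calls may thus have raised this share. Of 8 tested genes of groups 9 to 13, 1 was higher (12.5%, against 3.47%) and 5 were lower (62.5%, against 3.18%), with a median of -1.59. Hoxc4 read 409, 395 and 697 in DES oviduct and 16.7 and 7.38 in DES vagina, at least 9.46-fold higher (adjusted p = 9.35e-05). Hoxa5 read 871, 1126 and 1154 against 170.1 and 110.3, at least 6.33-fold higher (adjusted p = 7.55e-06), and Hoxc8 read 583, 675 and 638 against 66.7 and 79.02 (2.66 ± 0.26, adjusted p = 5.74e-06). Hoxa3, Hoxc5 and Hoxb6 were the others past the threshold, at 1.67, 1.59 and 0.95. The 2 vagina arrays were Absent for Hoxc4, Hoxa5, Hoxa3 and Hoxc5. Of the 6, 3 passed without DES vagina array 3.

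Of the 4 Hoxa genes that mark successive segments of the duct, Hoxa9, the gene of the oviduct segment, read 1179, 1190.0 and 1137 in DES oviduct and 666 and 685 in DES vagina (0.76 ± 0.18, adjusted p = 0.0169). Hoxa10, the gene of the uterine segment, read 410.0, 258 and 127 against 564 and 439.8 and did not pass (-0.96, adjusted p = 0.254, and 0.00154 with the scan day as a block). Hoxa11, of the lower uterus and cervix, read 163, 190.3 and 95.5 against 459 and 530.1 (-1.57, adjusted p = 0.000839). Hoxa13, of the vagina, read 91.4, 36.6 and 45.2 against 414 and 451 (-2.42, adjusted p = 0.000243). Hoxd13 was Absent on all DES oviduct arrays, at 13.6, 13.9 and 4.15, and read 275 and 479 in DES vagina, at least 8.38-fold higher in the vagina (adjusted p = 3.88e-06). Hoxd10 read 122, 89.5 and 19.4 against 499 and 467 (-2.38) and Hoxd11 83.2, 49.2 and 16.6 against 210.2 and 192 (-1.60), while Hoxd9 at 284, 214 and 151 against 202 and 206 overlapped. The call of Hoxa9 was lost in 4 of the 5 fits that left out 1 array.

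**Figure D2:**
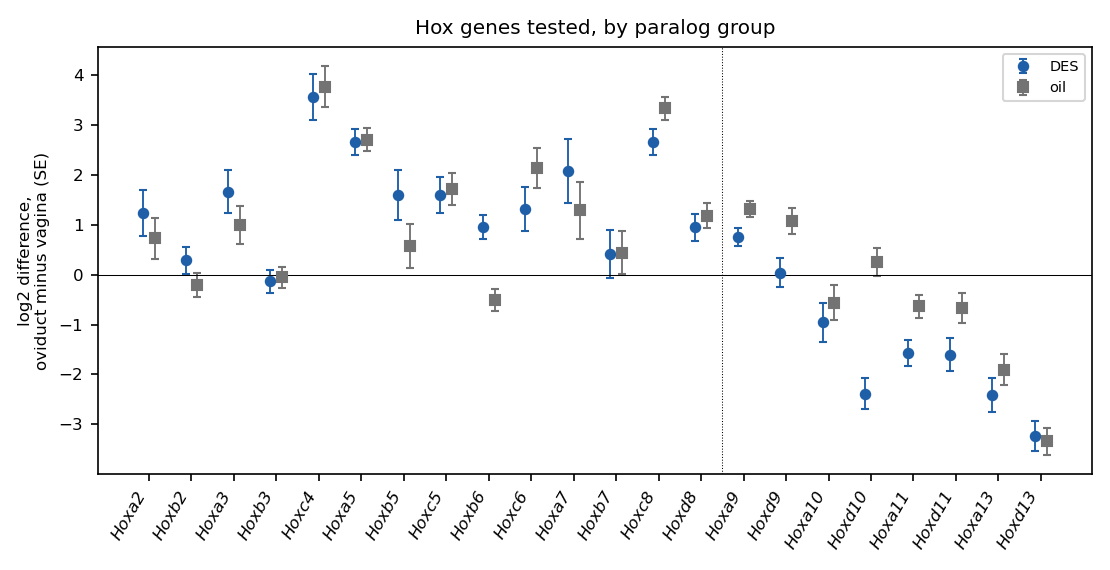
Difference between oviduct and vagina (log2, vertical axis, bars are the standard error) of each of the 22 Hox genes tested, ordered by paralog group, with DES as circles and oil as squares. The dotted line parts groups 1 to 8 from groups 9 to 13. With DES the values range from 3.56 for Hoxc4 to -3.23 for Hoxd13, and Hoxd10 is the gene of groups 9 to 13 whose DES and oil values are farthest apart.

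Of 34 other transcription factors of the duct, its stroma and the urogenital sinus, 12 were higher in DES vagina (35.3%, against 3.18% of all genes) and 1 in DES oviduct (2.94%, against 3.47%), with a median of -0.68. Of the 34, 9 were Absent on all DES oviduct arrays and 2 on both DES vagina arrays, so the filter on Present calls may have raised the share. Foxa1, a pioneer factor of sinus and squamous epithelium, read 47.8, 51.7 and 10.6 in DES oviduct and 882 and 1136 in DES vagina, at least 15.6-fold higher in the vagina (adjusted p = 1.63e-05). Isl1, a homeobox gene of the posterior stroma, read 152, 70.6 and 15.2 against 754 and 943, at least 9.1-fold higher in the vagina (adjusted p = 0.000197). Its oviduct arrays ranged widely and all lay below both vagina arrays. Gata3 was at least 4.95-fold higher in the vagina, Osr1, an early mesoderm gene, read 180.1, 139 and 262 against 919 and 1078 (-2.22), and Eya1, a transcriptional cofactor, was at least 3.12-fold higher. Gata6, the member on the oviduct side, read 801, 719 and 736 against 178 and 149.8 (2.001, adjusted p = 3.17e-05). Runx1, a factor of vaginal epithelium, at 181, 141 and 156 against 374 and 212, did not pass (adjusted p = 0.135). Meis1, Osr2 and Nr2f2 did not pass either and differed by 0.21, 0.23 and 0.018. The lower count was 7 without DES vagina array 2 and 6 without DES vagina array 3.

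Among signalling genes, the BMP, activin and TGF-beta pathway had 5 of 32 members higher in DES vagina (15.6%, against 3.18% of all genes) and 1 in DES oviduct (3.12%, against 3.47%). Gdf10, a BMP-like ligand also called BMP3b, had the lowest adjusted p of all genes tested. It read 106, 139 and 87.2 in DES oviduct and 3157 and 2702 in DES vagina (-4.38 ± 0.24, adjusted p = 2.11e-08). Bmp4, a ligand of the duct's stroma, read 194, 301 and 229.7 against 1431 and 1822 (-2.61 ± 0.24, adjusted p = 3.49e-06). Inhba and Inhbb, the activin subunits, differed by -2.08 and -1.38, and Nbl1, a secreted BMP antagonist, by -1.10. Bmp6 was the ligand on the oviduct side, at 166, 185 and 261 against 80.1 and 45.6 (1.32, adjusted p = 0.0457), and its call was lost in every fit that left out 1 array. The lower count was 3 without DES vagina array 3.

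Of 30 Wnt ligands, receptors and targets, 1 was higher in DES oviduct (3.33%, near the 3.47% of all genes) and 4 in DES vagina (13.3%, against 3.18%). Rspo1, a secreted amplifier of Wnt signals, read 385, 417 and 498 against 28.4 and 49.9, at least 5.96-fold higher in the oviduct (adjusted p = 0.000103). Lgr5, a receptor for R-spondins, read 96.2, 96.4 and 100.1 against 721 and 315, at least 3.94-fold higher in the vagina (adjusted p = 0.0089). Wnt4, a ligand needed for the duct to form, read 473, 445 and 399 against 952 and 1099 (-1.17 ± 0.21, adjusted p = 0.00188), and the receptors Fzd7 and Fzd1 differed by -1.41 and -0.98. Wnt5a, a stromal ligand that directs growth of the posterior tract, read 3105, 2648 and 1972 against 1949.8 and 1439.7 and did not pass (adjusted p = 0.178). Without DES vagina array 2 the lower count of ligands, receptors and targets was 1. Wnt7a, the epithelial ligand that maintains the duct's Hox pattern, was called Absent on all arrays of both DES groups, at 17.1, 18.3 and 79.3 and 21.7 and 141. Of 11 secreted and membrane inhibitors 1 was higher in DES vagina (9.09%, against 3.18% of all genes) and 1 in DES oviduct (9.09%, against 3.47%). Sfrp2 was higher in DES vagina, at 1925, 1747 and 1912 against 5079 and 6316 (-1.59, adjusted p = 0.000134). Dkk3 was higher in DES oviduct, at 1497, 1433 and 1483 against 682 and 782 (0.98, adjusted p = 0.00512), a call lost without DES vagina array 2.

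In the FGF pathway 1 of 17 genes was higher and 1 lower, 5.88% each and near the 3.47% and 3.18% of all genes. Fgf1 read 849.9, 872 and 658 against 222 and 191 (1.78, adjusted p = 0.000563), and Fgf7, a stromal growth factor for epithelium, read 299, 308 and 220.5 against 762 and 549.7 (-1.16, adjusted p = 0.0162), a call lost without DES vagina array 2. Fgf10, a stromal ligand of epithelial branching, read 79.8, 67.4 and 35.1 against 90.1 and 73.4 and did not pass (adjusted p = 0.87). Of 11 hedgehog genes 1 was higher in DES vagina (9.09%, against 3.18% of all genes) and none in DES oviduct. It was Foxf2, a stromal target of the pathway, at least 5.8-fold higher in the vagina (adjusted p = 0.000243). The receptor Ptch1 at 1198, 1294 and 1263 against 1658 and 1227 did not pass. Of 16 retinoid genes, 3 were higher in DES oviduct (18.8%, against 3.47% of all genes) and 4 in DES vagina (25%, against 3.18%). Crabp1, which binds retinoic acid in the cytoplasm, read 167, 125 and 82.1 against 1438 and 1629 (-3.35 ± 0.21, adjusted p = 8.85e-08). Crabp2, the receptor gene Rarb and the reductase gene Dhrs3 were also lower in the oviduct, at -0.91, -1.16 and -0.99, and this count of 4 was 2 without DES vagina array 3. The higher genes were Aldh1a1, Rarres2 (1.35), whose product chemerin draws immune cells, and Rdh10 (0.87), a retinol dehydrogenase named here after its value was seen.

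In the muscular and connective wall, 9 of 19 smooth muscle genes (47.4%, against 3.18% of all genes) were higher in DES vagina and none was higher in DES oviduct, with a median of -0.67. Myh11, the smooth muscle myosin heavy chain, read 415, 319.6 and 510.2 against 1576 and 1716 (-1.93 ± 0.25, adjusted p = 0.000101). Cnn1, which binds actin and myosin, and Actg2, the enteric smooth muscle actin, differed by -1.94 and -1.54, and Tagln by -1.26. The abundant Myl9 and Cald1 did not pass. The count was 5, 2 and 7 without DES oviduct array 1, 2 or 3, 3 without DES vagina array 2 and 1 without DES vagina array 3. Of 41 extracellular matrix genes, 7 (17.1%, against 3.18%) were higher in DES vagina and none in DES oviduct. Tnc, a matrix protein of growing stroma, read 138, 184 and 328 against 640.5 and 1063 (-1.86), Col14a1 799, 745 and 426 against 2532 and 1647 (-1.64) and Fbln1 1289, 1569 and 1659 against 4055 and 4293 (-1.46 ± 0.15, adjusted p = 1.44e-05). The main fibrillar collagen genes Col1a2 and Col3a1 did not pass, at -0.45 and -0.071. The matrix count was 4 without DES vagina array 2. None of 39 cell cycle genes and none of 15 ribosomal and housekeeping genes passed. Mki67, a proliferation marker, read 1225, 1514 and 1706 against 2122 and 2277, and Actb 23591, 25550.3 and 26283 against 25087 and 26396.

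Skeletal muscle transcripts were the other large group on the vagina side. Of 28 genes tested, 19 (67.9%, against 3.18% of all genes) were higher in DES vagina and none in DES oviduct, and the median was -2.54. None of the 28 was Absent on both DES vagina arrays. The filter on Present calls could thus be met through the vagina arrays, so it may have raised this share. Myl1, a fast myosin light chain, read 49.1, 66.2 and 71.04 in DES oviduct and 4445 and 5749 in DES vagina, at least 54.3-fold higher in the vagina (adjusted p = 0.0116). Myh3, the embryonic myosin heavy chain, read 2.73, 24.6 and 109.8 against 2722 and 3806 (-5.64, adjusted p = 0.000182), and Actc1, the cardiac actin that embryonic skeletal muscle also makes, read 141, 219 and 138 against 6627 and 6474 (-5.08). Tnnc2, Mylpf, Tnni2 and Tnni1, of the troponin complex and the myosin light chains, stood among the 15 largest differences too. The call of Myl1 was lost without DES vagina array 2 or 3 (highest adjusted p = 0.115), that of Mylpf in 3 of the 5 fits that left out 1 array, that of Tnnc2 in 4 and that of Tnni2 in 5, while Myh3, Actc1 and Tnni1 passed in all 5. The summed signal of the 28 genes was 2355 to 3594 on the DES oviduct arrays and 29926 to 39423 on the DES vagina arrays, and 14 of the 28 were Absent on all DES oviduct arrays. The sum was 3134 to 14240 in oil oviduct and 7972 to 27047 in oil vagina. The count of lower genes was 12 without DES oviduct array 1, 10 without DES vagina array 2 and 7 without DES vagina array 3. Muscle tissue beside the organ is not named in the labels, and its part in the other differences was not tested.

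Markers of other tissues moved too. Of 28 nerve and Schwann cell genes, 11 (39.3%, against 3.18% of all genes) were higher in DES vagina and none in DES oviduct. The median was -0.93, with sums of 6764 to 7323 against 11590 to 11671. Of the 28, 8 were Absent on all DES oviduct arrays and 1 on both DES vagina arrays. The Schwann cell genes Sox10 (-0.93), Mbp (-0.15), S100b (-0.42) and Pmp22 (0.15) did not pass, while Erbb3 (-0.87) did. Gata3, which other lists hold, is among the 11. Tubb3, a neuronal tubulin, was at least 4.5-fold higher in the vagina, Stmn2, a protein of growing axons, read 113, 118 and 148 against 567 and 755 (-2.12), and Nefl, a neurofilament subunit, read 160.3, 206 and 117 against 759 and 653 (-1.96). The nerve count was 5 without DES vagina array 3. Of 13 mesothelial genes, 6 (46.2%, against 3.47%) were higher in DES oviduct and none was lower, with sums of 14575 to 16316 against 14840 to 16247, which overlap. Gpm6a, a membrane glycoprotein, read 337, 309 and 334 against 45.03 and 44.3 (2.23 ± 0.22, adjusted p = 8.89e-06), Upk3b 855, 1121 and 1427 against 257 and 178 (2.21) and Wt1, the factor of coelomic epithelium, 490.4, 565 and 368 against 187 and 169 (1.25). Msln, mesothelin, did not pass, at -0.075. Of 7 urothelial genes 3 were higher in DES vagina (42.9%, against 3.18% of all genes), namely Krt5, Foxa1 and Gata3, which other lists hold. Upk3b was the 1 higher in DES oviduct (14.3%, against 3.47%). The uroplakins Upk1a at 662, 559.7 and 351 against 721 and 514 and Upk2 at 265, 364 and 113 against 495 and 415 did not pass.

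Of 17 endothelial genes, 2 were higher in DES oviduct (11.8%, against 3.47% of all genes), Sox17 and Cd34 (0.82), but only 1 without DES oviduct array 1 or DES vagina array 2 and none without DES oviduct array 2 or DES vagina array 3. None of the 23 macrophage and leukocyte genes, 12 ovary and germ cell genes, 8 cartilage genes and 4 red cell genes passed. The germ cell gene Gdf9 read 134, 240.1 and 53.5 against 137 and 66.9 and the steroid carrier Star was Absent in both groups.

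**Figure D3:**
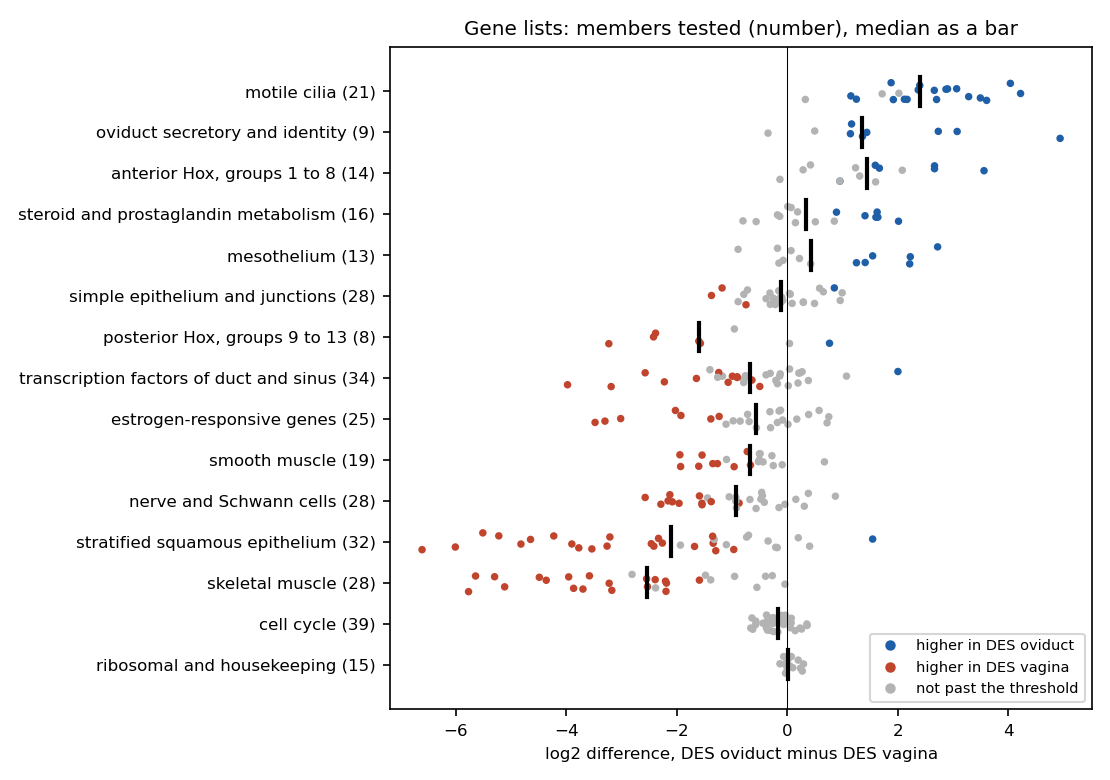
Difference between DES oviduct and DES vagina (log2, horizontal axis) of each tested member of 15 gene lists, with the number tested in parentheses. A point is 1 gene, coloured where it passed the threshold, and the black bar is the list's median, which runs from 2.40 for motile cilia to -2.54 for skeletal muscle.

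The same pair of organs was set beside this from the oil groups, which share no array with the DES groups. There 659 probe sets passed (3.95%), 334 higher in the oviduct (2%) and 325 higher in the vagina (1.95%). By gene these were 452 (4.69%), 231 higher in the oviduct (2.4%) and 221 higher in the vagina (2.29%). Across all 9637 genes the DES and the oil difference correlated at r = 0.498, a description over genes that are not independent replicates. Of the genes called, 199 were called in both, which is 31.1% of the DES list and 44.0% of the oil list, and 187 of the 199 had the same sign. The difference between the organ differences was tested as an interaction: 227 probe sets passed (1.36%), 131 more to the oviduct side with DES (0.784%) and 96 more to the vagina side (0.575%). By gene these were 160 (1.66%), 96 more to the oviduct side (0.996%) and 64 more to the vagina side (0.664%). By their own contrasts, 101 of the 160 were called with DES and not with oil, 35 with oil and not with DES, 21 with both and 3 with neither. The interaction count was 558 with the scan day as a block and 82 to 240 when 1 array was left out. It was 82 without DES vagina array 3, 118 without DES vagina array 2, 133 without oil vagina array 1, 136 and 139 without DES oviduct arrays 2 and 1, and 150 without oil oviduct array 1. It was 92 without DES oviduct array 1 and oil oviduct array 1, which share a deposited record.

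**Figure D4:**
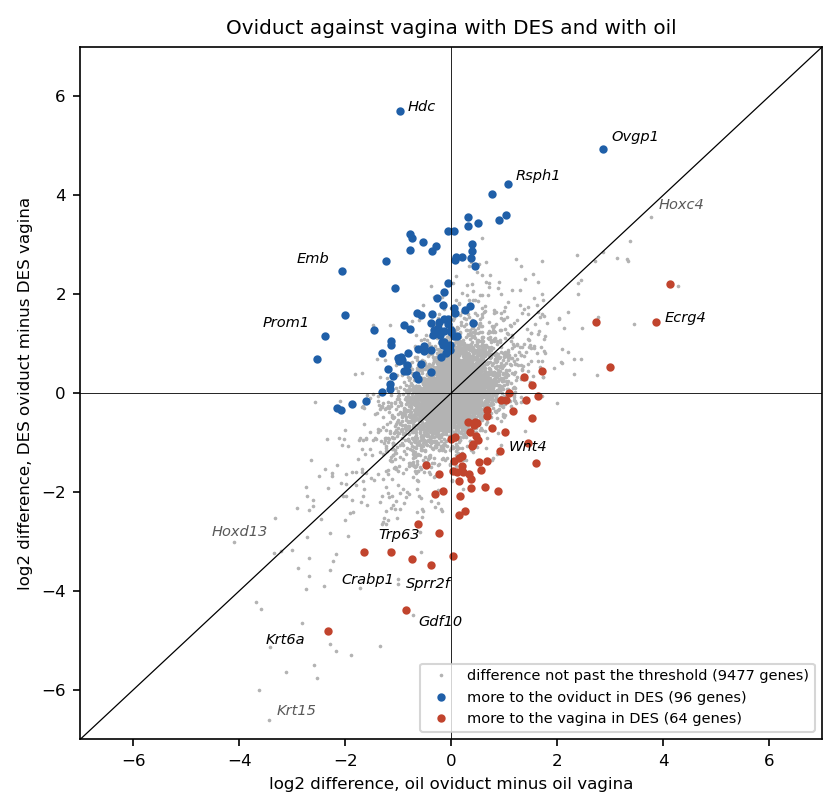
Difference between oviduct and vagina (log2) with DES on the vertical axis and with oil on the horizontal axis, 1 point per gene (9637 genes), with equal values on the diagonal. Coloured are the 160 genes past the threshold for the difference between both. Hoxc4, Hoxd13 and Krt15 are named in grey because their interaction did not pass without a block. With the scan day as a block that of Krt15 passes.

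With oil none of the 21 cilia genes passed and the median was 0.12. With the scan day as a block, 2 were higher in oil oviduct, Rsph1 and Spa17 (adjusted p = 0.0328 and 0.0342). Tppp3, a tubulin-binding protein, was lower. On the oil oviduct and oil vagina arrays with calls, Rsph1 had no Present call and Spa17 only 1, in oil vagina. Neither was thus called Present in oil oviduct. The interaction passed for 12 of 21, all to the oviduct side (against 0.996% of all genes), and for 15 with that block. Rsph1 read 95.2, 91.1 and 67.6 in oil oviduct and 21.9, 13.2 and 38.2 in oil vagina, and its interaction was 3.16 ± 0.47 (adjusted p = 0.00191). All 3 oil oviduct arrays lay far below every DES oviduct array. Lrrc23 read 149.6, 252 and 80.5 against 97.3, 90.5 and 43.3 with oil (interaction 3.27 ± 0.62, adjusted p = 0.0118). Of the 11 fits that left out 1 array, its interaction was lost in 1. Foxj1 read 71.9, 158 and 59.2 against 61.7, 77.3 and 20.4 with oil, and its interaction of 1.81 ± 0.72 did not pass (adjusted p = 0.41). Ovgp1 differed with oil too, at 922, 919 and 859 against 95.96, 121 and 75.3 (2.86), less than with DES (interaction 2.07 ± 0.39, adjusted p = 0.0104). The interaction of Ovgp1 was also lost in 1 of the 11 fits. Hdc read 569, 261 and 594 in oil oviduct and 1287, 914 and 641 in oil vagina (-0.98, adjusted p = 0.208), and had the largest interaction among the genes named, at 6.69 ± 0.56 (adjusted p = 3.69e-06).

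The squamous list was lower in the oviduct with oil as well, for 16 of 32 genes (against 2.29% of all genes) with a median of -1.06. Of its members 3 passed the interaction, all to the vagina side (against 0.664% of all genes), and 10 with the scan day as a block. Trp63 read 109.7, 148 and 68.96 in oil oviduct and 195, 339 and 294 in oil vagina (-1.14), and its interaction was -2.07 ± 0.45 (adjusted p = 0.0269). The DES vagina arrays lay above the oil vagina arrays for it and the DES oviduct arrays below the oil oviduct arrays. Krt6a and Dsc2 were the others, with interactions of -2.49 and -2.61. Of the 11 fits that left out 1 array, the interaction was lost in 8 for Trp63, 9 for Krt6a and 4 for Dsc2. Krt15, at 155, 331 and 234 against 1193, 3161 and 5979.8 with oil, and Krt14, at 144, 25.9 and 81.8 against 226, 484 and 783, had interactions of -3.15 and -3.03 that did not pass (adjusted p = 0.0578 and 0.0517) but did with the block (adjusted p = 0.00193 and 0.00537). With oil, 13 of the 28 simple epithelium genes were lower in the oviduct (against 2.29% of all genes) and 1 was higher (against 2.4%). Their median with oil was -0.765. The interaction passed for 6 of them to the oviduct side (against 0.996%) and for 1 to the vagina side (against 0.664%). Of the 25 estrogen-responsive genes 4 passed the interaction, all to the vagina side (against 0.664% of all genes). They were Sprr2f, Padi4, Ltf and Inhbb, at -3.10, -3.33, -2.29 and -2.05. Of the 11 fits, the interaction of Padi4 was lost in 5, those of Sprr2f and Ltf in 1 each, and that of Inhbb in none. Sprr2f read 133, 52.6 and 46.9 in oil oviduct and 171, 79.2 and 74.2 in oil vagina, so both DES organs lay above both oil organs.

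For 2 of the 22 Hox genes tested the interaction passed, against 1.66% of all genes. Hoxc4 differed by 3.56 with DES and 3.77 with oil, Hoxa5 by 2.66 and 2.71, Hoxa13 by -2.42 and -1.90, and Hoxd13 by -3.23 and -3.34, and none of these 4 passed it. Hoxc4 was Absent on every fitted vagina array in both treatments, so its interaction compares bounds and cannot show equal differences. The DES vagina arrays were Absent for Hoxa5 and the DES oviduct arrays for Hoxd13, so these DES values are bounds too. Hoxd10 did, at -2.64 ± 0.42 (adjusted p = 0.00355): it read 539, 494 and 402 in oil oviduct and 372, 334 and 489 in oil vagina, so the DES oviduct arrays were the lowest of the 4 groups. Hoxb6 also passed, at 1.46 (adjusted p = 0.035), but lost this in 9 of the 11 fits that left out 1 array and its DES call in 4 of 5. Gdf10 followed Hoxd10, with 1241, 1384 and 1502 in oil oviduct and 2409, 1999.8 and 3307 in oil vagina (interaction -3.52 ± 0.32, adjusted p = 1.03e-05), and so did Crabp1, with 1085, 972 and 1433 against 1816, 1941 and 2072 (interaction -2.61 ± 0.28, adjusted p = 9.78e-05). For all 3 genes the DES oviduct arrays lay below every array of the other 3 groups.

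12 genes were called in both treatments with opposite sign. Emb, embigin, a partner of lactate transporters at the cell surface, read 5443, 5840.2 and 5687 in DES oviduct and 977 and 1020.3 in DES vagina. With oil it read 256, 140.4 and 233 and 908, 856 and 1109, so it was higher in the oviduct with DES (2.46) and lower with oil (-2.06), with an interaction of 4.52 ± 0.26 (adjusted p = 6.29e-08). The DES vagina arrays lay within the range of the oil vagina arrays, and the oviduct arrays parted. Prom1, prominin, a protein of apical membrane protrusions, read 3011, 2759 and 3043 against 1164 and 1435 with DES and 898, 1112 and 897 against 5840.1, 5253 and 4449.7 with oil (interaction 3.54 ± 0.23, adjusted p = 1.64e-07). Here the DES oviduct arrays lay above all oil oviduct arrays, and the DES vagina arrays below all oil vagina arrays.

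Wnt4 turned the other way. It read 746, 794 and 971 in oil oviduct and 313, 443 and 547 in oil vagina (0.92), and the interaction was -2.09 ± 0.28 (adjusted p = 0.000748). Dkk3, a secreted member of the Dickkopf family, read 399, 412 and 294 against 761, 1014 and 772 with oil (interaction 2.12 ± 0.27, adjusted p = 0.000453). Arg2, an arginase of mitochondria, read 424, 471 and 440.1 against 157 and 101 with DES and 98.8, 124 and 78.7 against 551, 445 and 492 with oil (interaction 3.59 ± 0.45, adjusted p = 0.000453). Wfdc15b, Gclc, which makes the precursor of glutathione, and Pcbd1, a cofactor recycling enzyme, turned in the same way as Dkk3, with interactions of 2.74, 2.26 and 2.06. Sptssb, a subunit of the enzyme that starts sphingolipid synthesis, turned like Wnt4, at -2.998 (adjusted p = 0.00478).

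**Figure D5:**
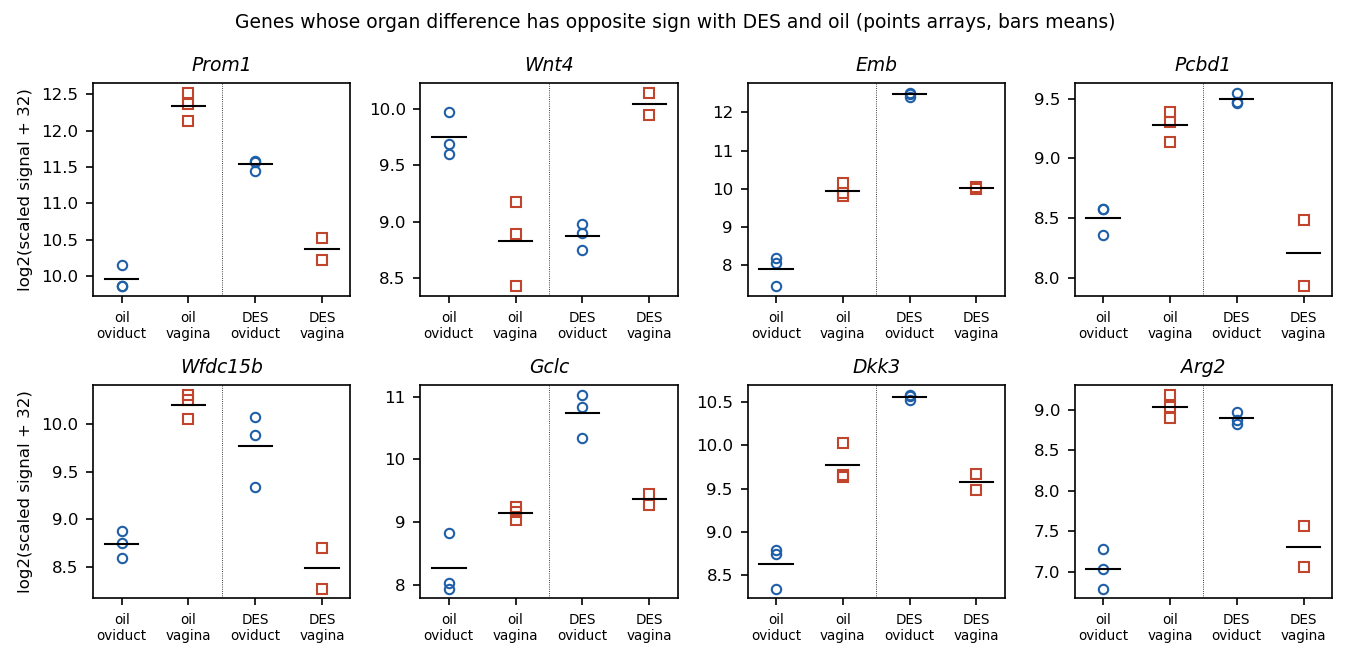
Signals, as log2(scaled signal + 32), of 8 of the 12 genes called in both treatments with opposite sign. A point is 1 array, the bar is the group mean, circles are oviduct and squares vagina, and the vertical scale differs between genes. In Emb the 3 DES oviduct arrays stand above all others, and in Wnt4 the order of the organs turns between oil and DES.

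DES vagina array 1, on the older chip, was not in the fit and gave calls for part of these genes through other probe sets. Of the 242 genes higher in DES vagina that it holds, 210 were called Present (86.8%), against 70.5% of all genes tested that it holds. Of the 227 higher in DES oviduct that it holds, 139 were Present (61.2%). It called 15 of 18 squamous genes Present, Trp63, Krt4 and Krt13 among them. The other 3 were Krt5, Krt14 and Krt15, which its probe sets called not Present although the fitted arrays were bright for them. Of the 13 cilia genes it holds, Lrrc23 and Wdr78 were Present and the other 11, Foxj1 and Rsph1 among them, were not. Of the 417 genes tested that it holds and that were Absent on both fitted DES vagina arrays, 56 were Present (13.4%). A low count of Present calls is thus not particular to cilia genes. Of 18 skeletal muscle genes 16 were Present.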

How the data were processed

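RNA from oviduct, uterus and vagina was measured on Affymetrix arrays, 1 per sample. Per the file headers, each deposited array file holds for a probe set its intensity (linear signal), its call and the detection p-value behind that call, and the value table repeats the intensity. How the authors' software scaled the signals is not stated in the labels. Each array was scaled here to a mean of 500 after trimming 2% at each end without the 64 control probe sets, and a pseudocount of 32 was added before log2. Of 22626 probe sets, 20380 carry 1 gene symbol in the platform annotation, 691 several and 1555 none. Symbols of 20351 were updated by gene ID through RefSeq.

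The fit used limma 3.58.1 (R 4.3.3) on 17 arrays in 6 groups, with a mean for each group and a variance trend, and Benjamini-Hochberg adjustment ran over all probe sets of a contrast. The number of arrays limits the precision. A gene is represented by its tested probe set with the highest mean log2 signal. In a bound, an Absent array counts at the larger of its signal and the lowest Present signal of that array.

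Named were the 15 largest differences in each direction (Present throughout the higher group, no overlap), up to 6 called and 3 other members of each of 32 lists, the 8 largest interactions in each direction, up to 6 genes of opposite sign, and fixed genes. Of the fixed genes, Shh did not reach the Present minimum, and another is not reported here. The comparison, members, lists, tests and alternatives were chosen with earlier results of these data known. The alternatives were other pseudocounts, filters and normalizations, array weights, no trend, fewer groups, blocks and left-out arrays. The procedure was tested on simulated data.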

Additional observations from a re-analysis of the deposited data

Results flagged for a closer look

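Of the 225 genes named by the rule, 51 had an organ difference that itself differed between DES and oil, by the interaction in the limma fit at an adjusted p of 0.05. Of all genes tested 1.66% did, and the rule itself picks large interactions. Each value is the DES difference minus the oil difference on the log2 scale. The largest values to the oviduct side with DES were those of Hdc (6.69), Emb (4.52), Ccna1 (4.01), Cidea (3.90), Aldoc (3.88), Drc1 (3.67), Arg2 (3.59), Meig1 (3.59), Prom1 (3.54) and Dnajb13 (3.35). They were followed by Lrrc23 (3.27), Agr3 (3.24), Mlf1 (3.23), Rsph1 (3.16), 1700094D03Rik (3.06), Drc3 (2.93), Wfdc15b (2.74), Nme5 (2.58), Spa17 (2.57) and Gclc (2.26). The smaller ones were those of Dkk3 (2.12), Ovgp1 (2.07), Pcbd1 (2.06), Dkk2 (1.86), Cd24a (1.68), Hoxb6 (1.46), Cldn3 (1.37), Wfdc2 (1.32) and Krt18 (0.91). The largest values to the vagina side with DES were those of Gdf10 (-3.52), Padi4 (-3.33), Sprr2f (-3.10), Sptssb (-2.998), Lgr5 (-2.87), Hoxd10 (-2.64), Crabp1 (-2.61), Dsc2 (-2.61), Muc5b (-2.55), Krt6a (-2.49) and Ecrg4 (-2.43). The others were those of Ltf (-2.29), Wnt4 (-2.09), Trp63 (-2.07), Inhbb (-2.05), Upk3b (-1.92), Sfrp2 (-1.80), Egr1 (-1.62), Krt7 (-1.42), Col14a1 (-1.41), Gpx3 (-1.03) and Fbln1 (-0.98).

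Of the 21 motile cilia genes tested 12 are among all genes past this threshold, all to the oviduct side (against 0.996% of all genes). Those named are Rsph1, Lrrc23, Spa17, Nme5, Mlf1, Meig1 and Drc1. These values rest on 3 DES oviduct, 2 DES vagina and 6 oil arrays, and no cause was tested. With the scan day blocked all 51 passed, and 26 did in every one of the 11 fits that left out 1 array. In over 5 of these fits the interaction was lost for Krt6a, Nme5, Drc3, Gpx3, Hoxb6, Krt7, Muc5b, Col14a1, Fbln1, Upk3b and Trp63.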

How the results depend on the processing

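No alternative turned the sign of the DES oviduct to vagina difference for the 129 named genes that were called, and at least 1 did for 35 of the other 96. The call was lost for 46 genes without DES vagina array 3 and 34 without DES vagina array 2, and gained for 20 of the 96 when the scan day was a block. The 855 probe sets of the DES comparison became 1484 with the scan day blocked, 1340 with the replicate block, and 429 (without DES vagina array 3) to 769 with 1 array left out. The 659 of the oil comparison became 1385, 1337 and, with only its own 6 arrays, 426. The 227 of the interaction became 558 with the scan day blocked, 498 with the replicate block, 361 with array weights, 92 without both oviduct arrays that share a record and 82 (without DES vagina array 3) to 240 with 1 array left out. Counts under the other alternatives stayed within 1.5 times. The cause of these moves was not tested. The array numbers carry no stated litter: the median correlation of deviations from the group mean was 0.284 for the same number (n = 40 pairs), 0.233 for numbers 1 and 2 (n = 25) and -0.351 across scan days (n = 55), so the replicate block is a check and not a pairing. Near 0, the medians of the hedgehog, retinoid, cartilage, ovary, mast cell, red cell, fat and immediate early lists changed sign under at least 1 alternative. Where DES vagina keeps 1 array, its spread is taken from the other groups. The second-day values and the fits without arrays that share a record were chosen after seeing the data. Genes Absent throughout a group have bounds only.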
